A study of Mus musculus with 35 samples.

Results

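The 10 genes described here encode growth factor receptors and surface proteins of fibroblasts, and were chosen by symbol: Pdgfra, Pdgfrb, Fgfr1, Egfr, Igf1r, Met, Tgfbr1, Tgfbr2, Thy1 and Cd44. All 10 have a row among the 19085 genes of the deposited count table. Their transcripts were counted in 35 single MEFs, fibroblasts grown from mouse embryos, here of strain C57Bl/6J and kept at 3% oxygen. All 35 cells had received 1 Gy of ionising radiation 48 h before capture and had been reseeded on membrane dishes 32 h after irradiation, so no unirradiated cell was compared. The 21 cells of the first group carried micronuclei, bodies of chromatin enclosed outside the main nucleus, and the 14 cells of the second group carried none. Each cell was cut out by laser under a DNA dye, and Smart-seq2, a method that covers whole transcripts without molecular identifiers, was run on its polyadenylated RNA. No culture, embryo or animal is named for any cell, so a group is 1 sample here. No test between the groups was possible and no p-value is given. Intervals are 95% intervals, exact Poisson for summed reads and Clopper-Pearson where a share of cells is given. The Poisson intervals hold counting error of reads alone. The intervals of shares treat the cells as independent draws. Neither kind covers variation between cultures or animals, so their overlap or separation is no test of the groups.

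Receptor tyrosine kinases such as the PDGF, FGF, EGF, IGF and HGF receptors sit in the plasma membrane and signal as pairs. With a ligand bound, the partners of a pair phosphorylate each other to start the Ras-MAPK and PI3K-Akt cascades. The TGF-β receptors are serine/threonine kinases: the type II receptor, encoded by Tgfbr2, binds the ligand and activates the type I receptor, encoded by Tgfbr1, which phosphorylates Smad proteins. In fibroblasts the first set drives growth, migration and survival, and the TGF-β pair drives matrix production and contractile differentiation. Thy1 is a small protein held by a lipid anchor and a classical fibroblast marker, and Cd44 is a receptor for hyaluronan, a sugar polymer of the matrix.

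Reads counted on genes numbered 57514 to 1794113 per cell with micronuclei (median 281800) and 56766 to 2023111 in cells lacking them (median 736715). The median number of genes detected was 6812 in cells with micronuclei and 6082 in cells without. Markers of fibroblasts were abundant: the summed CPM (counts per 1e6 reads on genes) of 15 listed markers ranged from 7907 to 33854 in cells with micronuclei and from 12337 to 29407 in cells without. A median of 13 of the 15 had 5 or more reads per cell in both groups, but Lum had 0 reads in the cells with micronuclei. Of 13 listed macrophage markers, at least 2 had 5 or more reads in 4 cells with micronuclei and in 0 cells without. Micronucleated cell 10 had 5 or more reads of all 13, at a summed 17024 CPM, while cells 1, 4 and 18 stood at 60.3, 390 and 495 CPM. Each of these 4 cells also had Col1a1, from 1137 to 2542 CPM, and cells 4 and 18 had 9.57% and 25.7% mitochondrial reads. Micronucleated cell 6 had a summed 1452 CPM of the macrophage markers but 5 or more reads of only 1. It was not counted among the 4 and was kept when they were left out. Among the cells without micronuclei 11 of the 13 markers, Ptprc and Adgre1 among them, were at 0, and the summed level reached at most 64.1 CPM. Endothelial, epithelial, neural and skeletal muscle marker lists had median sums of 44.8, 32.5, 120.0 and 2.01 CPM in cells with micronuclei and of 52.3, 18.4, 96.5 and 0 CPM in cells without. Of 10 genes in each list, 6, 6, 7 and 6 had a row. At least 2 neural markers had 5 or more reads in 11 of 21 cells with micronuclei and in 9 of 14 without. For the endothelial, epithelial and skeletal muscle lists this held in 2, 1 and 0 cells with micronuclei and in 1, 0 and 1 without.

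Cd44 and Thy1 were nearly everywhere, Igf1r, Fgfr1 and Tgfbr2 were in most cells, and the other receptors were each in fewer. At least 5 reads were found in 35 of 35 cells for Cd44, 34 for Thy1, 29 for Igf1r, 21 for Fgfr1, 20 for Tgfbr2, 17 for Tgfbr1, 13 for Pdgfrb, 12 for Egfr, 8 for Pdgfra and 4 for Met. Levels of different genes were compared as CPM per kb of exon, over the summed reads of all 35 cells. The length takes all annotated exons of a gene together, not the transcript made in these cells. The order of genes close in level may therefore depend on it. On that scale Cd44 stood at 478 CPM per kb and Thy1 at 90.4, above Tgfbr2 at 12.5, Fgfr1 at 8.06 and Igf1r at 5.54. Pdgfrb stood at 3.86 CPM per kb, Tgfbr1 at 2.80, Pdgfra at 1.74, Egfr at 1.36 and Met at 0.344. Within single cells Thy1 exceeded Tgfbr2 per kb in 32 of 35 cells, by 4.11 on the log2(CPM per kb + 1) scale (SD 2.22). This was the only step between neighbours in the order that was larger than the SD of the difference within cells. Cd44 exceeded Thy1 per kb in 30 cells, by a mean of 1.74 log2 units (SD 1.90). Tgfbr2 and Fgfr1 did not separate, with Tgfbr2 higher per kb in 16 cells and lower in 17.

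**Figure D1:**
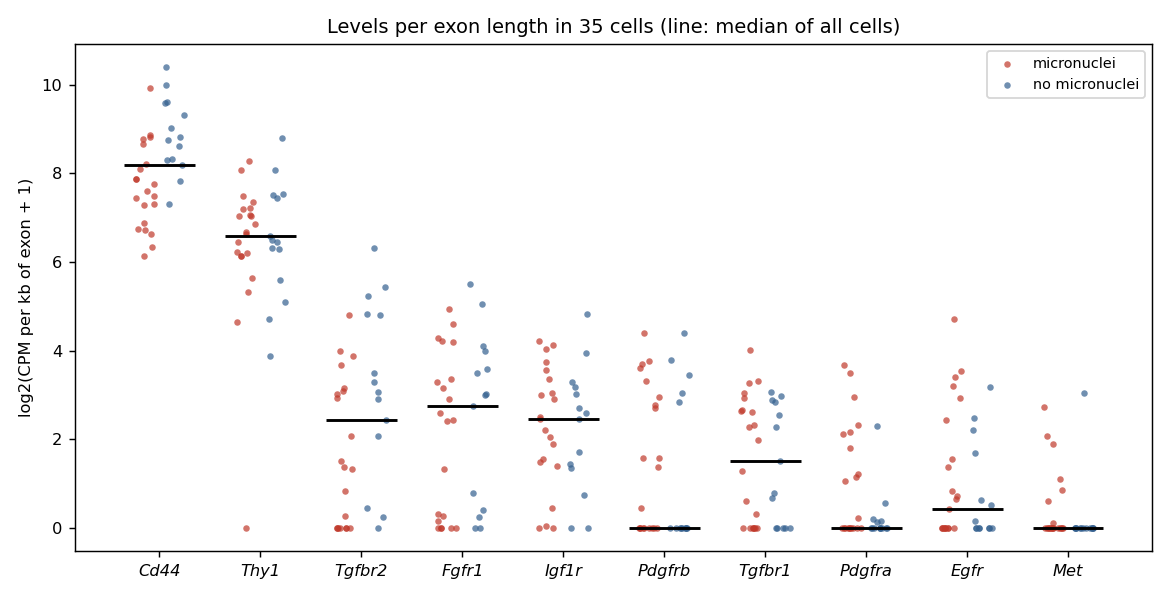
Level of each gene per exon length, as log2(CPM per kb of exon + 1), in each of 21 cells with micronuclei and 14 without; every point is a cell and the line is the median of all 35. By their medians Cd44 and Thy1 stand above all the receptors, whose points spread from 0 upward and overlap from one gene to the next.

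The number of the 10 genes with at least 5 reads in a cell had a median of 5 in both groups, with a range of 1 to 9 in cells with micronuclei and of 2 to 9 in cells without. It reached 9 in 3 cells with micronuclei (1, 2 and 8) and in 1 cell without (cell 9). The lowest was micronucleated cell 6, where Cd44 at 785 CPM was the only one of the 10 genes with a read. That cell had the fewest genes detected, 2391, with 6 of the 15 fibroblast markers at 5 reads or more, Col1a1 at 281 CPM, and 1452 CPM from 1 macrophage marker. Across the 35 cells the number of these genes with at least 5 reads followed the number of genes detected (Spearman rho 0.66) more than the reads per cell (rho 0.35). Both measures come from the same libraries.

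Between the groups Cd44 and Tgfbr2 were lower and Pdgfra was higher in cells with micronuclei by at least 2-fold in summed CPM. A gene was called measured if it reached 5 CPM in the sum of all cells and 5 reads in 5 cells or more, which held for 9 of the 10 and not for Met. Of those 9, 1 was at least 2-fold higher and 2 at least 2-fold lower, while 22.9% and 14.7% of all 8390 measured genes were, or 37.7% in either direction. In any degree 5 of 9 were higher, a share near the 56.0% of all measured genes. The 2-fold shares of the 9 rest on 1 and 2 genes, too few to compare with the rest. The median log2 ratio, log2((CPM with micronuclei + 1)/(CPM without + 1)), was 0.13 over the 9 and 0.15 over all measured genes. Over all 10 genes it was 0.05. For 4 higher and 4 lower of the 9 measured genes, the sign was the same in summed reads, equal weights and every leave-out. Over all measured genes the shares were 33.5% and 20.1%. The genes that kept their sign included Igf1r and Pdgfrb, whose smallest ratios in size were 0.03 and 0.07. The signs of both changed in other settings. Without the 4 cells with macrophage markers each of the 10 kept its direction, with log2 ratios of 2.41 for Pdgfra, 0.15 for Pdgfrb, −1.42 for Tgfbr2, −1.18 for Cd44 and −0.44 for Met. Without 6 cells with fewer than 4000 genes or over 9% mitochondrial reads, Igf1r alone had the other sign, at 0.05.

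**Figure D2:**
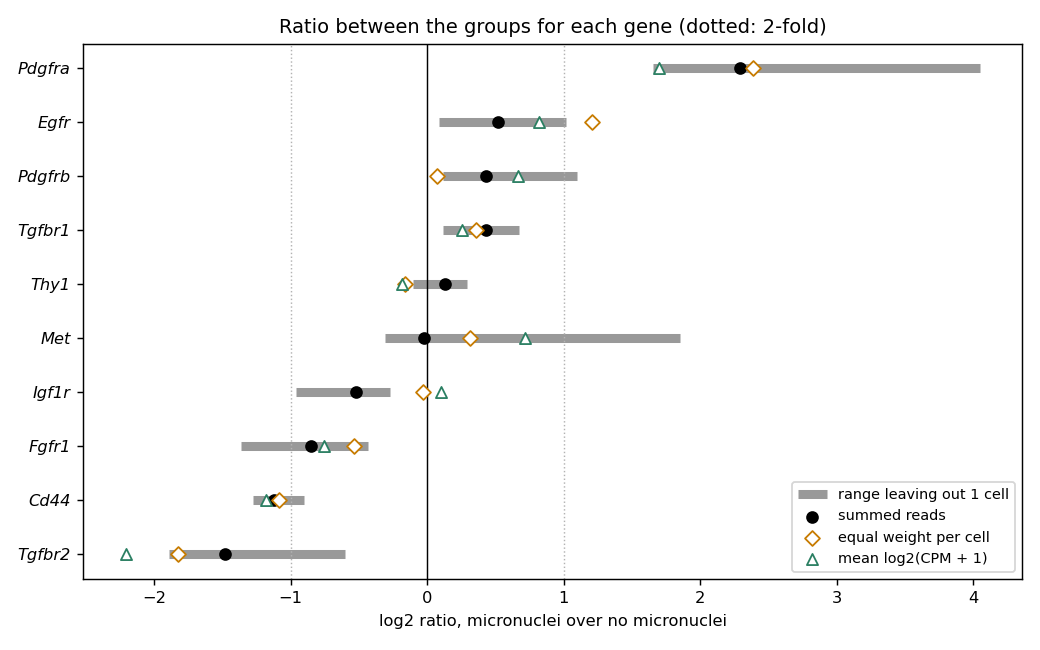
Log2 ratio of cells with micronuclei over cells without for each gene, from summed reads (black points), with equal weight per cell (diamonds) and as the difference in mean log2(CPM + 1) (triangles); grey bars span the ratios when 1 of the 35 cells is left out, and dotted lines mark 2-fold. Pdgfra lies right of 2-fold by all 3 measures, Cd44 and Tgfbr2 lie left of it, and Thy1, Met and Igf1r have measures on both sides of 0.

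Cd44 (chr2:102811141-102901665, minus strand, GRCm38), the hyaluronan receptor, was the most abundant of the 10 genes and was lower in cells with micronuclei. It ranged from 472 to 6540.1 CPM per cell with micronuclei (median 1309, SD 1385, n = 21) and from 1065 to 9125 CPM per cell without (median 2999.7, SD 2259, n = 14). The groups overlapped, but 8 micronucleated cells lay below the lowest cell without micronuclei and 18 of 21 lay below the median of that group. The medians were 1690 CPM apart, more than the SD among cells with micronuclei and less than the SD among cells without. In summed reads Cd44 stood at 2021 CPM (1994 to 2047) in cells with micronuclei and 4397 CPM (4359 to 4435) in cells without, a log2 ratio of −1.12.

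The direction of the Cd44 difference did not rest on 1 cell. The cell with most of its reads, cell 11 without micronuclei, held 16.9% of them, and without it the log2 ratio was −0.90, under 2-fold. With equal weight for each cell it was −1.09, as the difference in mean log2 CPM −1.18, and −0.96, also under 2-fold, after every cell was thinned to 119337 reads. The highest micronucleated cell, cell 1 at 6540.1 CPM, was one of the 4 with macrophage markers, and Cd44 is also a gene of leukocytes. Without those 4 cells the highest micronucleated cell was at 3134 CPM and the log2 ratio was −1.18. Across the 35 cells the level of Cd44 had a Spearman rho of 0.42 with the reads per cell, and the median cell with micronuclei had fewer reads than the median cell without. Variant exons of Cd44 cannot be told apart in counts per gene.

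Thy1 (chr9:44043384-44048579, plus strand), the other surface marker, showed no direction between the groups. It ranged from 0 to 922 CPM (median 301, SD 222) in cells with micronuclei and from 41.03 to 1327 CPM (median 263, SD 348) in cells without. Of the 21 micronucleated cells 20 had at least 5 reads, as had 14 of 14 cells without micronuclei, and the ranges overlapped almost throughout. The summed level was 283 CPM (273 to 293) in cells with micronuclei and 259 CPM (249.6 to 268) in cells without, a log2 ratio of 0.13. With equal weight it was −0.16, with TMM scaling −0.01, and leaving out cell 7 without micronuclei, cell 8 of that group or micronucleated cell 14 made it −0.11, −0.01 and −0.00.

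**Figure D3:**
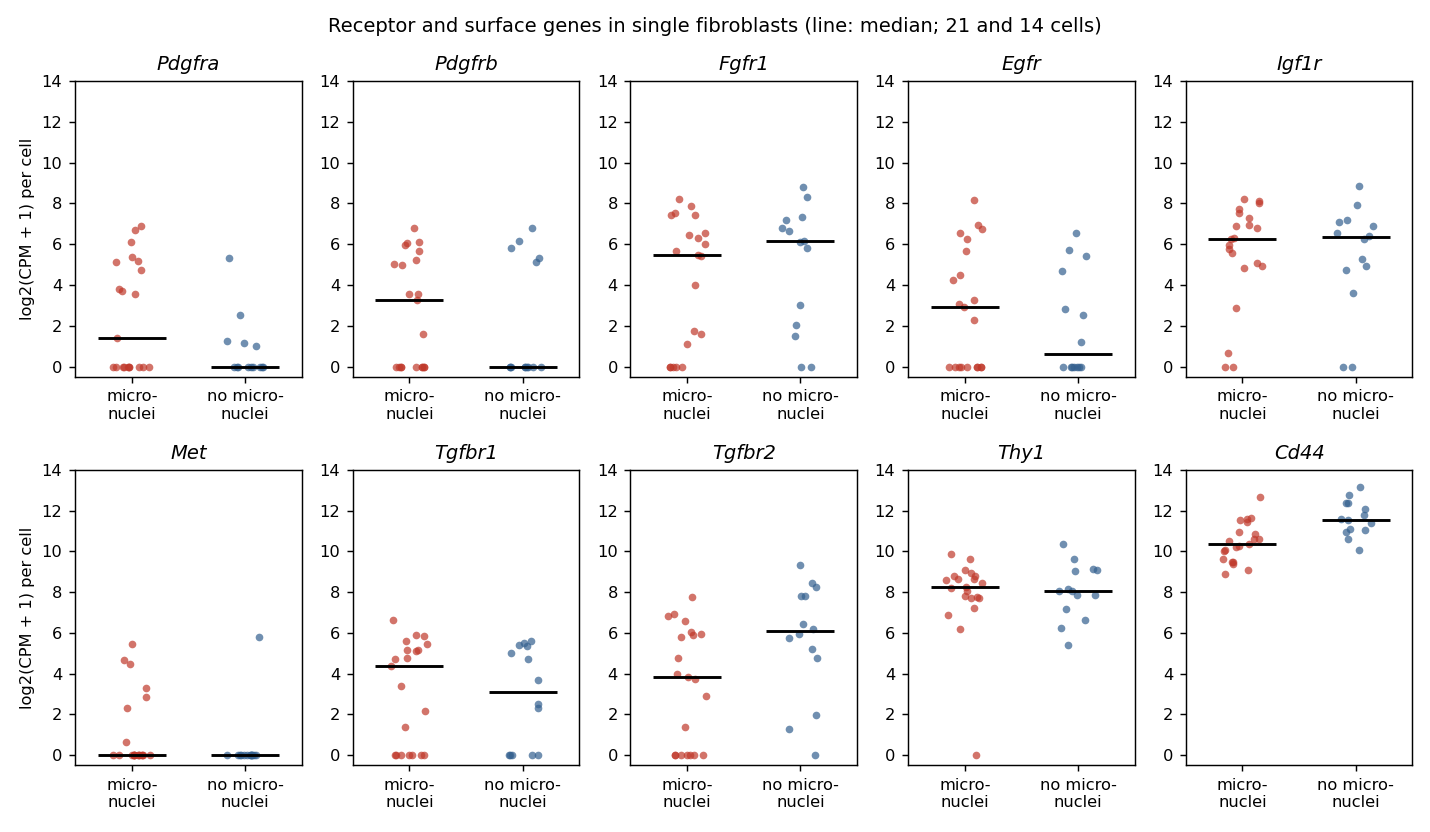
Level of each of the 10 genes in every cell, as log2(CPM + 1), with cells with micronuclei on the left and cells without on the right of each panel; lines are group medians over 21 and 14 cells. Cd44 is in every cell and sits lower on the left, Tgfbr2 has more cells at 0 on the left, and Pdgfra has its highest cells on the left.

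Pdgfra (chr5:75152292-75198215, plus strand), the receptor for PDGF-A and PDGF-C among others and a marker of mesenchymal progenitors, was sparse and higher in cells with micronuclei. It ranged from 0 to 118 CPM (median 1.63, SD 34.7) in cells with micronuclei and from 0 to 39.02 CPM (median 0, SD 10.3) in cells without. The 3 highest were micronucleated cells 15, 14 and 7 at 118, 103 and 67.8 CPM, and 4 micronucleated cells exceeded all cells without micronuclei. At least 5 reads were found in 7 of 21 cells with micronuclei (33.3%, 14.6 to 57.0%) and in 1 of 14 without (7.14%, 0.181 to 33.9%), so the intervals of the shares overlapped. In summed reads Pdgfra stood at 30.04 CPM (26.9 to 33.4) in cells with micronuclei and 5.34 CPM (4.09 to 6.84) in cells without, a log2 ratio of 2.29.

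The size of that ratio rested on few cells, while its direction was the same whichever 1 cell was left out. Of the 333 reads in cells with micronuclei, cells 14, 7, 15 and 9 held 151, 98, 31 and 24. Leaving out several of these cells together was not tested. Micronucleated cell 14 held 38.2% of all Pdgfra reads, and without it the log2 ratio was 1.65. Cell 11 without micronuclei held 53 of the 62 reads in its group, and without it the log2 ratio was 4.05. With equal weight it was 2.39, and 1.70 in mean log2 CPM. At the common depth 3 of 17 cells with micronuclei and 1 of 13 without kept at least 5 reads. Exons of Pdgfra share 652 bases with annotated genes, Gm42802 and Gm42803 on the opposite strand and Mir7025, and without a stated strand setting such reads cannot be told apart.

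Pdgfrb (chr18:61045150-61085061, plus strand), the receptor for PDGF-B and PDGF-D, which marks pericytes as well as fibroblasts, differed little. It ranged from 0 to 110.0 CPM (median 8.68) in cells with micronuclei and from 0 to 109 CPM (median 0) in cells without, and reached 5 reads in 9 of 21 and 4 of 14 cells. The summed level was 24.5 CPM in cells with micronuclei (21.7 to 27.6) and 17.9 CPM in cells without (15.6 to 20.5), a log2 ratio of 0.43. It was 0.07 with equal weight, −0.05 with scran size factors and 1.10 when cell 6 without micronuclei was left out. Only 4 of 35 cells had at least 5 reads of both PDGF receptors, while 4 had only Pdgfra, 9 only Pdgfrb and 18 neither.

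Fgfr1 (chr8:25513654-25575718, plus strand), the main FGF receptor of mesenchyme, was lower in cells with micronuclei in summed reads but under 2-fold. It ranged from 0 to 294 CPM (median 43.4, SD 87.6) in cells with micronuclei and from 0 to 441 CPM (median 69.6, SD 130.2) in cells without. Only 2 cells without micronuclei lay above the highest micronucleated cell, and the difference of the medians was below either SD. At least 5 reads were found in 12 of 21 and 9 of 14. In summed reads Fgfr1 stood at 56.1 CPM (51.8 to 60.7) in cells with micronuclei and 102 CPM (96.2 to 108) in cells without, a log2 ratio of −0.85, −0.53 with equal weight and −0.36 after thinning. It passed 2-fold without micronucleated cell 7 (−1.36) or without cell 8 of the other group (−1.02). Cell 6 without micronuclei held 20.2% of its reads, and leaving it out gave −0.43. Gm16159, annotated on the opposite strand, shares 164 bases with the exons of Fgfr1.

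Egfr (chr11:16752203-16918158, plus strand), the receptor for EGF and HB-EGF, was detected in few cells of either group. It ranged from 0 to 285 CPM (median 6.54, SD 68.7) in cells with micronuclei and from 0 to 91.3 CPM (median 0.659, SD 27.6) in cells without. Of the micronucleated cells 4 lay above the highest cell without micronuclei, led by cell 3, and 8 of 21 against 4 of 14 cells had at least 5 reads. Summed levels were 18.4 CPM with micronuclei (15.97 to 21.1) and 12.6 CPM without (10.6 to 14.8), a log2 ratio of 0.52. It was 1.21 with equal weight, 1.27 after thinning, 1.02 when cell 9 without micronuclei was left out and 0.09 when micronucleated cell 3 was.

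Igf1r (chr7:67952827-68233668, plus strand), the receptor for IGF-1 and IGF-2, was the receptor found in most cells, with at least 5 reads in 17 of 21 cells with micronuclei and 12 of 14 without. It ranged from 0 to 296 CPM (median 75.9, SD 94.3) in cells with micronuclei and from 0 to 458 CPM (median 79.7, SD 122) in cells without. The distributions overlapped throughout, with 1 cell without micronuclei, cell 1, above all the others. In summed reads Igf1r was at 75.9 CPM (70.8 to 81.2) in cells with micronuclei and 109 CPM (104 to 116) in cells without, a log2 ratio of −0.52. The ratio was −0.03 with equal weight and 0.10 in mean log2 CPM, where deep and shallow cells count alike; summed reads weigh cells by depth.

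Met (chr6:17463800-17573980, plus strand), the HGF receptor of epithelia and their migrating derivatives, was near the detection limit. It had 29 reads over the 21 cells with micronuclei and 31 over the 14 without, where all the reads were in cell 9. Its level was 2.62 CPM with micronuclei (1.75 to 3.76) and 2.67 CPM without (1.81 to 3.79), and the ratio's counting interval ran from −0.81 to 0.75 on the log2 scale. A read was present in 7 of 21 cells with micronuclei and 1 of 14 without, and at least 5 reads in 3 and 1. Without non-micronucleated cell 9 no read of Met was left in that group and the log2 ratio was 1.85, a value that depends on the added 1 CPM. A difference in Met was not detectable at this depth.

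The TGF-β receptors differed in opposite directions in summed reads, with Tgfbr2 lower and Tgfbr1 slightly higher in cells with micronuclei. Tgfbr2 (chr9:116084293-116175360, minus strand) ranged from 0 to 219 CPM (median 13.1, SD 56.9) in cells with micronuclei and from 0 to 642 CPM (median 66.5, SD 183) in cells without. Of the cells without micronuclei 5 lay above the highest micronucleated cell, and 17 of 21 micronucleated cells lay below the median of the other group. At least 5 reads were found in 9 of 21 cells with micronuclei (42.9%, 21.8 to 66.0%) and in 11 of 14 without (78.6%, 49.2 to 95.3%). At the common depth the counts were 6 of 17 and 10 of 13.

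In summed reads Tgfbr2 stood at 52.8 CPM (48.6 to 57.2) in cells with micronuclei and 149 CPM (142 to 156) in cells without, a log2 ratio of −1.48. Cell 8 without micronuclei held 39.3% of all its reads, and without that cell the log2 ratio was −0.60. Measures that give each cell the same weight were larger in size, −1.82 for mean CPM and −2.21 for mean log2 CPM, and the thinned ratio was −1.80. The difference between the medians, 53.4 CPM, was nevertheless below the SD of either group.

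Tgfbr1 (chr4:47353222-47414931, plus strand) ranged from 0 to 99.4 CPM (median 19.4, SD 26.7) in cells with micronuclei and from 0 to 47.9 CPM (median 8.42, SD 19.5) in cells without. Of the micronucleated cells 3 exceeded all cells without micronuclei, while at least 5 reads were found in 9 of 21 against 8 of 14. At the common depth that order turned, with 4 of 17 cells with micronuclei and 2 of 13 without. Summed levels were 21.2 CPM with micronuclei (18.6 to 24.1) and 15.5 CPM without (13.3 to 17.9). The log2 ratio of 0.43 ranged from 0.12 to 0.67 when a cell was left out. Both TGF-β receptors had at least 5 reads in 6 of 21 cells with micronuclei and 6 of 14 without. Neither was found at that level in 9 of 21 cells with micronuclei and in 1 of 14 without. Of these, micronucleated cells 10, 17, 18, 19 and 20 and cell 2 without micronuclei had some reads of Tgfbr1 or Tgfbr2, but fewer than 5 of each. The counts of this pair are not given at the common depth, while median reads per cell were 281800 with micronuclei and 736715 without.

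**Figure D4:**
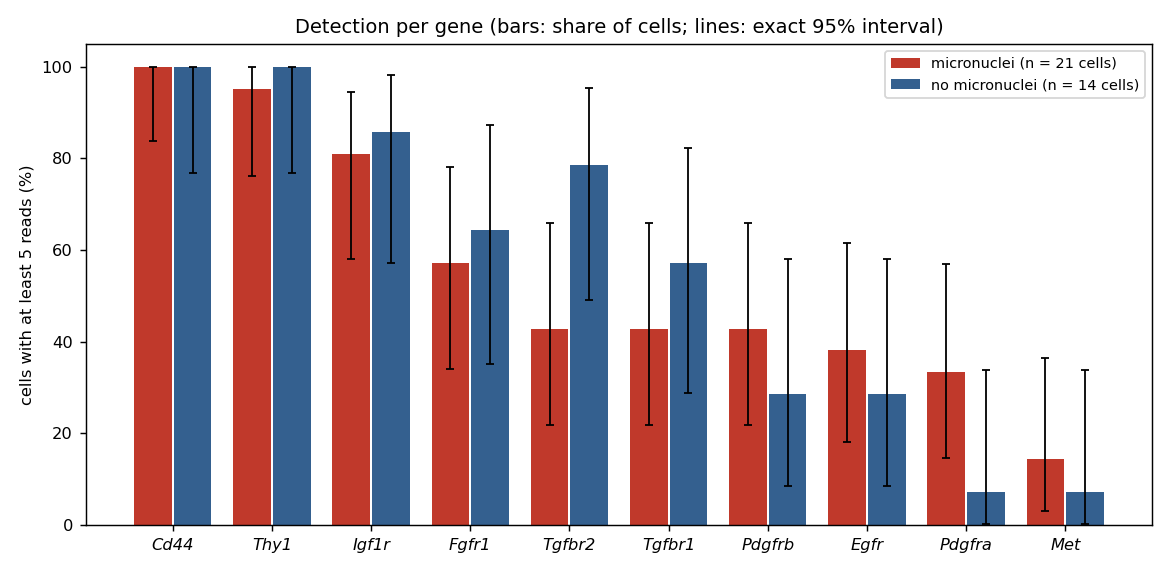
Share of cells with at least 5 reads of each gene, with micronuclei (left bar, 21 cells) and without (right bar, 14 cells). Lines are exact 95% Clopper-Pearson intervals, which treat cells as independent draws and do not cover variation between cultures or animals. The intervals of the groups overlap for every gene, and the bars are farthest apart for Tgfbr2, 42.9% and 78.6%.

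The share of cells with at least 5 reads was larger in cells with micronuclei for 4 of the 10 genes, smaller for 5 and equal for Cd44; it was larger for 46.7% of all measured genes. At the common depth it was larger for 5, smaller for 3 (Fgfr1, Tgfbr2 and Igf1r) and equal for Met and Cd44. The genes that turned were Tgfbr1 and Thy1, the latter with 16 of 17 cells with micronuclei against 12 of 13 without. No share over all measured genes is given at the common depth, so that count cannot be set beside the rest. CPM summed over the 10 genes ranged from 716 to 7722 (median 2107) in cells with micronuclei and from 1568 to 9703 (median 4253) in cells without. Most of it was Cd44: over the other 9 genes the medians were 694 and 731 CPM, a difference below the SDs of 379 and 442.

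Each receptor was then set beside its ligand with the most reads, among the ligands listed. Hbegf, a membrane-held EGF family ligand, had at least 5 reads in 32 of 35 cells and was present in all 12 cells with at least 5 reads of Egfr. It stood at 326 CPM with micronuclei and 416 CPM without. Igf2 and Igf1r were found together in 22 cells, and Igf2 stood at 300.3 CPM with micronuclei and 255 CPM without, a log2 ratio of 0.24 that was −0.04 when cell 7 without micronuclei was left out. Exons of Igf2 share bases with annotated genes on both strands. Tgfb3 was found with Tgfbr2 in 16 cells and with Tgfbr1 in 14. Its summed level of 89.9 CPM with micronuclei and 188 CPM without rested on cell 13 without micronuclei, which held 37.2% of the reads and without which the log2 ratio of −1.06 was −0.02. Leaving out any 1 of 6 other cells also took it under 2-fold, to between −0.692 and −0.999.

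The other receptor and ligand pairs follow. Fgf2, an FGF that binds Fgfr1, was found with it in 11 cells, 8 of 21 with micronuclei and 3 of 14 without. Pdgfc and Pdgfra shared 6 cells, and Pdgfd and Pdgfrb 5. Pdgfc stood at 66.1 CPM with micronuclei and 89.3 CPM without, and Pdgfd at 13.5 and 18.6 CPM. The log2 ratio of Pdgfc, −0.43, was 0.03 when cell 13 without micronuclei was left out and −1.03 when micronucleated cell 13 was. Hgf had 8 reads, all in micronucleated cell 10, the cell with 13 macrophage markers, and no cell had at least 5 reads of both Hgf and Met.

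**Figure D5:**
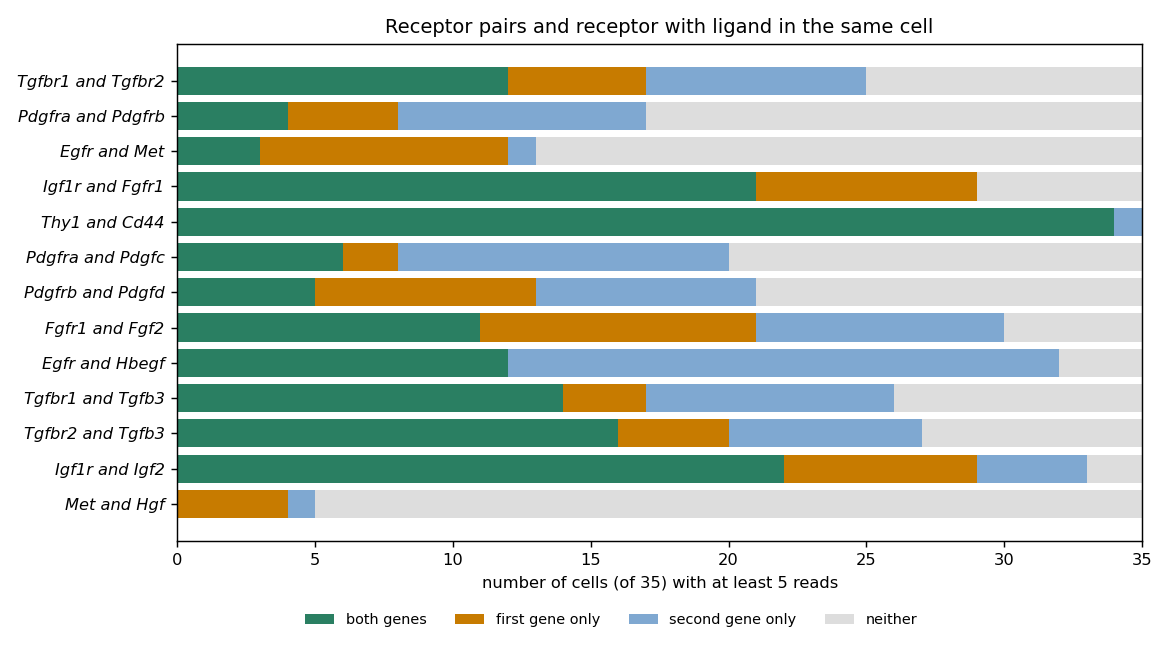
Number of the 35 cells with at least 5 reads of both genes of a pair, of the first or second alone, or of neither, for pairs of the 10 genes and for each receptor with its most read ligand. Thy1 and Cd44 are together in 34 cells and Igf1r and Igf2 in 22, while Met and Hgf are together in 0.

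Across cells the levels of the widely detected members were only loosely related. Among Fgfr1, Tgfbr2, Igf1r, Thy1 and Cd44, each with at least 5 reads in 50% of the cells or more, the highest Spearman rho over the 35 cells was 0.46, between Fgfr1 and Thy1, and that of Thy1 with Cd44 was −0.09. Fgfr1 itself had a rho of 0.47 with the number of genes detected, which the points share. Of 3809 other genes at that detection, those most like Fgfr1 were Cd3eap (rho 0.70) and Fam133b (0.67). For Thy1 they were Flnc, an actin crosslinker, at 0.70 and Ep300, a histone acetyltransferase, at 0.68. For Igf1r they were Ankra2 (0.65) and Dpysl3 (0.61). No gene reached 0.6 with Tgfbr2 or Cd44, whose highest were 0.54 and 0.599. Each is the highest of 3809 values and is given as a description.

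The gene lists that follow can be set beside all 8390 measured genes, of which 56.0% were higher in cells with micronuclei. At least 2-fold higher were 22.9%, at least 2-fold lower were 14.7%, and the median log2 ratio was 0.15. Ligands and hyaluronan enzymes differed in both directions. Of 26 listed, which include Fgf7 and Fgf10, ligands of Fgfr2, 22 had a row and the others were not analysed here; of 13 measured, 7 were higher and 6 lower in cells with micronuclei, 4 and 2 by at least 2-fold, with a median log2 ratio of 0.04. Has2, which makes the hyaluronan that Cd44 binds, stood at 53.0 CPM (48.8 to 57.4) with micronuclei and 5.43 CPM (4.17 to 6.94) without, a log2 ratio of 3.07. Its reads came from few cells, 5 or more in 6 of 21 and 2 of 14 cells, and without micronucleated cell 11 the ratio was 2.41; the antisense gene Has2os overlaps it. Ereg, an EGF family ligand, was lower, at 11.1 against 53.7 CPM (log2 ratio −2.18; leaving out micronucleated cell 9 gave −2.86), and reached 5 reads in 6 of 21 and 8 of 14 cells. Fgf2 was higher, at 68.5 against 27.3 CPM (log2 ratio 1.30), and reached 5 reads in 14 of 21 and 6 of 14 cells. Its ratio was 2.44 without non-micronucleated cell 4 and 0.92 without micronucleated cell 14, and Nudt6 overlaps it on the opposite strand.

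Related receptors and co-receptors were 9 higher and 14 lower of 23 measured among 36 listed, 3 and 5 by at least 2-fold, with a median log2 ratio of −0.63. Without non-micronucleated cell 5 that median was −0.11, and in mean log2 CPM it was −0.06. The collagen receptor gene Ddr1 stood at 34.9 CPM with micronuclei and 83.0 CPM without (log2 ratio −1.23, and −0.99 or −0.96 without cell 13 of either group). Nrp1, a co-receptor for VEGF and semaphorins, stood at 86.8 against 152 CPM (−0.80). Lrp1, a large endocytic receptor that also binds PDGF receptors, stood at 206 against 129.7 CPM (0.66).

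Signal transducers were 15 higher and 17 lower of 32 measured among 37 listed, 6 each by at least 2-fold, with a median of −0.05. Shc1, an adaptor that links receptors to Ras, stood at 91.8 CPM with micronuclei and 28.9 CPM without (log2 ratio 1.63), and reached 5 reads in 14 of 21 and 8 of 14 cells. Akt2, a kinase downstream of PI3K, stood at 23.7 against 6.63 CPM (1.70; leaving out cell 13 without micronuclei gave 2.30). The Src family kinase gene Yes1 was lower, at 4.87 against 28.8 CPM (−2.35; leaving out cell 6 without micronuclei gave −1.59). Antisense or opposite-strand genes overlap the exons of Yes1, Ereg, Ddr1, Pdgfc and Tgfb3.

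Feedback inhibitors were 11 higher and 16 lower of 27 measured among 30 listed, 5 and 3 by at least 2-fold, with a median of −0.16. Smurf1, a ubiquitin ligase that removes TGF-β and BMP pathway proteins, stood at 21.1 CPM with micronuclei and 57.7 CPM without (log2 ratio −1.41; leaving out cell 4 without micronuclei gave −0.88). Ptpn1, a phosphatase acting on receptor kinases, stood at 71.4 against 26.01 CPM (1.42), in 14 of 21 and 7 of 14 cells. Lrig1, which promotes the breakdown of EGF family receptors, stood at 29.8 against 10.4 CPM (1.43). Its ratio was 0.88 when micronucleated cell 13 was left out and 4.00 when cell 10 without micronuclei was, and Slc25a26 overlaps it on the opposite strand.

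Transcriptional targets of these receptors were 13 higher and 9 lower of 22 measured among 24 listed, 5 and 2 by at least 2-fold, with a median of 0.27. Srf, the serum response factor, stood at 59.2 CPM with micronuclei and 15.6 CPM without (log2 ratio 1.86). Etv5, a transcription factor induced by FGF signalling, stood at 45.3 against 8.87 CPM (2.23; 54.2% of the reads were in micronucleated cell 13, and leaving it out gave 0.999, while leaving out cell 10 without micronuclei gave 3.11). Egr1, an early response gene, stood at 639.6 against 281 CPM (1.18, and under 2-fold, at 0.91, when cell 7 without micronuclei was left out, or at 0.99 and 0.95 without micronucleated cells 11 and 14).

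Other surface proteins of fibroblasts were 8 higher and 12 lower of 20 measured among 24 listed, 0 and 3 by at least 2-fold, with a median of −0.28. Alcam, an adhesion molecule, stood at 89.5 CPM with micronuclei and 308 CPM without (log2 ratio −1.77). Adam10, a membrane protease that cleaves Cd44 among other surface proteins, stood at 187 against 395 CPM (−1.08; leaving out cell 5 or cell 7 without micronuclei gave −0.85 or −0.74). Itgb1, the β1 integrin subunit, stood at 930.1 against 1804 CPM (−0.96), and 5 micronucleated cells lay below the lowest cell of the other group. The ratio of Itgb1 passed 2-fold when any of 5 cells was left out, reaching −1.10 without micronucleated cell 7.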

How the data were processed

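Raw read counts, as deposited by the authors, were used for 19085 genes and 62 ERCC spike-ins. Per the submitters' processing notes the aligner was STAR, the build GRCm38.p5 and the counter Rsubread, and scater was used to leave out cells by spike-in share, genes and total counts; no version or strand setting was found in those notes. All 35 cells were used, no doublet caller was run on hand-picked cells, and 0 of 595 pairs of cells were identical. The number of unused sample columns was 0. The labels give no batch, plate or date. Spike-ins stayed out of totals.

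Counts were summed per group (11084425 reads with micronuclei, 11612303 without) and scaled to CPM. Called means at least 2-fold with 1 CPM added. Exon lengths, positions and overlaps come from GENCODE M21 annotation of GRCm38 by symbol, matched for 227 of 228 listed genes present. Thinning drew 119337 reads from each cell, the depth of the 6th shallowest, and left out 5 shallower cells. The calculation of the ratio was checked on simulated Poisson counts with planted fold changes. Those counts held no variation between cells beyond depth, so the check does not bear on how far single cells move a ratio here. The members and lists were chosen with earlier results of these data known. The members are always named, as are each receptor's most read ligand (for Fgfr1 without Fgf7 and Fgf10, which bind Fgfr2 and were set aside after their values were seen) and, per list, up to 3 genes with at least 20 CPM in a group and the largest smallest ratio of 1 sign over sums, equal weights and leave-outs. For members with 5 reads in 50% of cells, the 2 most correlated genes are named at rho 0.6 or more. Alternatives changed the scaling (TMM or scran factors), the weights of cells, the added CPM (0.1 or 5), the depth, the totals (no mitochondrial reads), the filters and the cells used. The tools were edgeR 4.0.16 (for TMM factors only) and scran 1.30.0 under R 4.3.3, with scipy 1.17.1, pandas 2.3.3, numpy 2.4.6 and matplotlib 3.10.9 under Python 3.11.15.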

Additional observations from a re-analysis of the deposited data

How the results depend on the processing

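Cd44, Tgfbr2, Fgfr1, Pdgfra, Egfr and Tgfbr1 kept their direction in all 10 settings of scaling, added CPM, thinning and left-out groups of cells, and Pdgfrb in 9, Igf1r in 8, Met in 6 and Thy1 in 5 of them. Adding 0.1 or 5 CPM to both groups cannot change a direction. TMM scaling and totals without mitochondrial reads shift all genes by a similar amount, so they can turn only small ratios. These settings are therefore no check of direction for the larger ratios, and no such tally over all measured genes is given. Over all 10 settings the log2 ratio ran from −1.26 to −0.96 for Cd44, −2.21 to −1.24 for Tgfbr2 and 1.70 to 2.63 for Pdgfra. Leaving out 1 cell at a time gave −1.28 to −0.90, −1.89 to −0.60 and 1.65 to 4.05. The median over the 10 genes, 0.05, lay between −0.17 and 0.38 and the number higher, 5, between 4 and 6 when a cell was left out. Under the stricter filter, at least 20 CPM and 5 reads in 10 cells, 6 genes were left. Of these 2 were higher, and the median was −0.69. The genes removed were Pdgfra, Egfr, Tgfbr1 and Met, with log2 ratios of 2.29, 0.52, 0.43 and −0.02. The balance therefore depended on which genes of low level were kept. The median number of the genes with at least 5 reads per cell was 5 in both groups, 5 and 4 after thinning, 7 and 6 with at least 1 read, and 4 and 5 with at least 10 reads; leaving out 1 cell moved the difference by 0 to 0.5. The cells' depth, 56766 to 2023111 reads, limits what can be said of Met and of cells at 0. No paired analysis was possible because the numbers of the cells only name them, and no label ties a cell of one group to a cell of the other.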
